A study of Ovis aries with 6 samples.

Results

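ACLY, ACACA, SCD, SCD5, DGAT1, FABP5, PPARG and SQLE are 8 genes of fatty acid, triglyceride and sterol synthesis, and their transcripts were measured in wool-bearing and wool-free skin of sheep. They were found by the sheep RefSeq mRNA accession that each array probe carries, which gave 12 probes, out of 734 probes for 476 genes that could be named in this way. ACACA, SCD5, DGAT1 and SQLE had 2 probes each and the other 4 genes had 1. The skin came from Aohan fine wool sheep, a breed kept for its fleece, at 12 months of age. The animals were 1 ram and 2 ewes by the same father, reared in pens. From each animal full-thickness skin was taken at the body side, which bears wool, and at the groin, which does not, so each site has 3 samples. Total RNA was amplified, labelled with the dye Cy3 and hybridised to Agilent sheep arrays, 1 sample per array. The series title places the comparison in the growth phase of the wool follicle, anagen.

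Most of these genes encode steps of lipid synthesis, and FABP5 and PPARG carry lipid or regulate its genes. ACLY cleaves citrate in the cytosol to acetyl-CoA, from which both fatty acids and sterols are built, and ACACA carboxylates acetyl-CoA to malonyl-CoA, the committed step of fatty acid synthesis. SCD and SCD5 introduce a double bond into saturated fatty acids, and DGAT1 adds the last acyl chain to a triglyceride. FABP5 is a small carrier of fatty acids that is abundant in keratinocytes, PPARG is a nuclear receptor that drives the differentiation of fat cells and sebocytes, and SQLE oxidises squalene on the way to cholesterol. In skin such lipid is made by sebaceous glands, by the epidermis for its barrier and by fat cells below the dermis. Full-thickness skin mixes these cells, so a lower share of a cell type and less RNA per cell cannot be told apart in any value below.

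All groin arrays were scanned together and all body side arrays in another scan, so the effect of the scan and that of the site cannot be told apart. The arrays also differed in brightness. The upper quartile (75th percentile) of processed signal ran from 1103 to 2048 at the body side and from 3677 to 4401 at the groin, which is a log2 difference of -1.57 (two-sided p = 0.1 by exact permutation, the smallest that 3 arrays against 3 allow). For this reason the upper quartile of its own array was subtracted from each log2 signal to give a scaled level, and every difference is body side minus groin. Of 13278 probes tested with limma, 69.9% passed an adjusted p of 0.05, 37% as higher and 32.8% as lower on the body side, with a median difference of 0.10. Higher calls made up 53.0% of all calls, but 68.5% after median centring, 68.6% after normexp background correction, 39.8% when the percentile was taken over probes well above background on all 6 arrays, and 1.98% without scaling. These settings put the median of all tested probes at 0.56, 0.46, -0.23 and -1.47.

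The 8 genes did not move as a group. ACLY and SCD were far lower on the body side, ACACA and SCD5 were moderately higher there, the DGAT1 probes went opposite ways, and FABP5, PPARG and SQLE, all bright, had differences whose sign turned with the scaling, SQLE being called higher and the others not passing. Of the 12 probes, 6 were called higher, against 37% of all tested probes, and 3 lower, against 32.8%. The other 3 did not pass. SCD, among the 3 called lower, was above background in the groin alone and entered the test through it. The other 11 probes were above background on all 6 arrays. In a fit of probes above background on all 6 arrays, 6 of these 11 were called higher and 2 lower. That fit called 4801 of its 10580 probes higher and 2963 lower. The arrays of the sites did not overlap for 9 of the 12 probes, SCD included, where this held for 75.2% of all tested probes. The median difference of the 12 probes was 0.45. By quantile normalization, by cyclic loess and in the authors' deposited table the same test called all 12 probes, 5 higher and 7 lower. Of the 13278 tested probes it called 8682, 8785 and 8739 in these settings, of which 4587, 4286 and 4572 were higher. Without replicate 3 of both sites, limma called 3 of the 12 and 6564 of all tested probes.

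**Figure D1:**
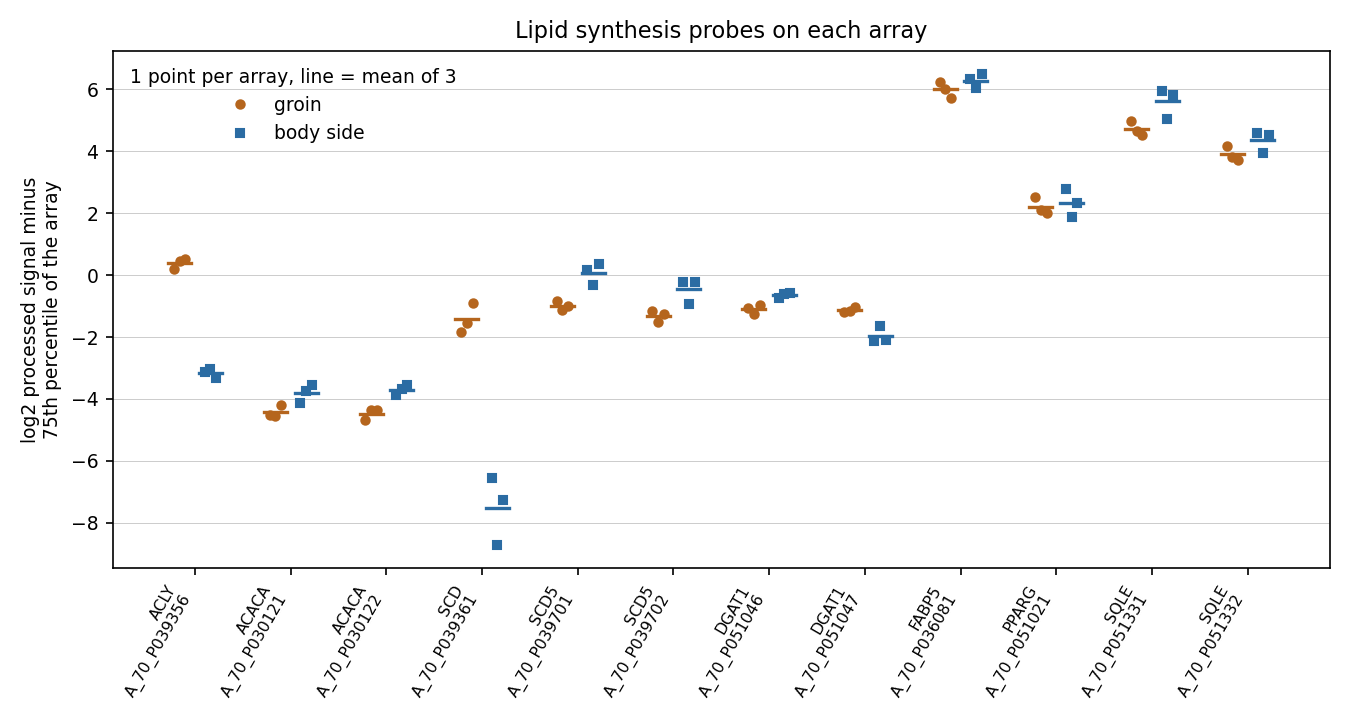
Level of each of the 12 probes on each array, as the scaled log2 level (vertical axis), with groin arrays as circles, body side arrays as squares and the mean of 3 arrays as a line. The mean of ACLY was 0.40 for the groin arrays and -3.17 for those of the body side, and the body side points of SCD lie between -8.71 and -6.54, not well above background; levels of different probes are not comparable.

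ACLY, the enzyme that supplies cytosolic acetyl-CoA, had a processed signal of 4224, 5744 and 6367 on the groin arrays of replicates 1, 2 and 3 and of 126.3, 248.6 and 112.4 on the body side arrays. Every groin array was far above every body side array, even though all 6 spots were well above background. On the scaled log2 values the mean was 0.40 ± 0.18 in the groin and -3.17 ± 0.15 on the body side (SD, n = 3 each). The difference was -3.56 ± 0.17 SE (95% interval -3.96 to -3.16), or 11.8-fold, with a limma adjusted p of 7.16e-06. Of all tested probes 1.42% had a difference below this one. In rank terms, which need no scaling, ACLY was brighter than 76.9% to 80.7% of the probes on a groin array and than 43.1% to 46.6% on a body side array. The call and its direction held in all 21 alternative fits, with differences from -5.14 without scaling to -2.94 with normexp.

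SCD, the main stearoyl-CoA desaturase of sheep fat, gave processed signals of 1031, 1431 and 2377 in the groin and 11.9, 4.90 and 7.38 on the body side. The body side spots had median signals of 79.0, 59.0 and 61.0 over local backgrounds of 43.0, 43.5 and 42.0, and none of them was well above background. The body side value is therefore a limit and not a level. The groin mean was -1.42 ± 0.48 (SD, n = 3). For the limit, each body side array was given its lowest reading among probes well above background, or the probe's own where higher. With the main scaling, groin skin then had at least 24.9-fold more SCD signal. The limit was not computed for other settings, and the fitted difference moved with them, to -5.62 after median centring. The limma fit ran on the readings themselves, whose means were -7.50 and -1.42 for body side and groin, and gave an adjusted p of 4.19e-05 in which the body side readings lie near the background. SCD also entered the test through the groin arrays alone, which favours a lower reading on the body side. That adjusted p is therefore not used as evidence. With normexp, which lifts dim spots by an offset, the fitted difference was -2.52 instead of -6.08. The groin arrays also spread more for SCD than for ACLY, with the highest value in replicate 3 and the lowest in replicate 1.

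ACACA, the carboxylase directly after ACLY, was dim but measured on all 6 arrays. Its brighter probe, A_70_P030122, read -4.69, -4.35 and -4.37 in the groin and -3.86, -3.69 and -3.56 on the body side, with no overlap. The difference was 0.77 ± 0.18 SE, 1.70-fold higher on the body side (limma adjusted p = 0.00476). The other probe, A_70_P030121, differed by 0.62 ± 0.21 SE (adjusted p = 0.0243), a call that ended in 5 of the 9 fits that left out arrays. The probes thus had the same direction, and the gap between them on the same array overlapped between the sites. The call on the brighter probe ended without replicate 3 (0.75, adjusted p = 0.0596) and with the percentile over probes bright on all arrays (0.43), and without scaling the difference was -0.81. Both ACACA probes and both SCD5 probes were called higher by quantile normalization, by cyclic loess, after median centring, with normexp and in the authors' deposited table. ACACA was brighter than 26.8% to 29.2% of the probes on a groin array and than 37.7% to 40.4% on a body side array.

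SCD5, the second desaturase, lay on the opposite side from SCD. Its brighter probe, A_70_P039701, had processed signals of 2052, 1899 and 2187 in the groin and 1236, 1634 and 1460 on the body side. The raw signal was thus lower on every body side array, by less than the arrays as a whole were dimmer. Scaled, the probe read -0.84, -1.14 and -1.01 in the groin and 0.16, -0.33 and 0.37 on the body side. The body side replicate 2 array gave the lowest of those 3 values, but it still lay above the groin. The difference was 1.06 ± 0.21 SE, or 2.09-fold (limma adjusted p = 0.00238), and 0.85 ± 0.23 SE for the other probe, A_70_P039702 (adjusted p = 0.0103). The brighter probe passed in 20 of 21 alternative fits; without scaling it was at -0.51. It was brighter than 62.8% to 66.5% of the probes on a groin array and than 72.4% to 77.6% on a body side array. The other probe lost its call with the percentile over probes bright on all arrays (0.52) and without replicate 3 (0.76).

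**Figure D2:**
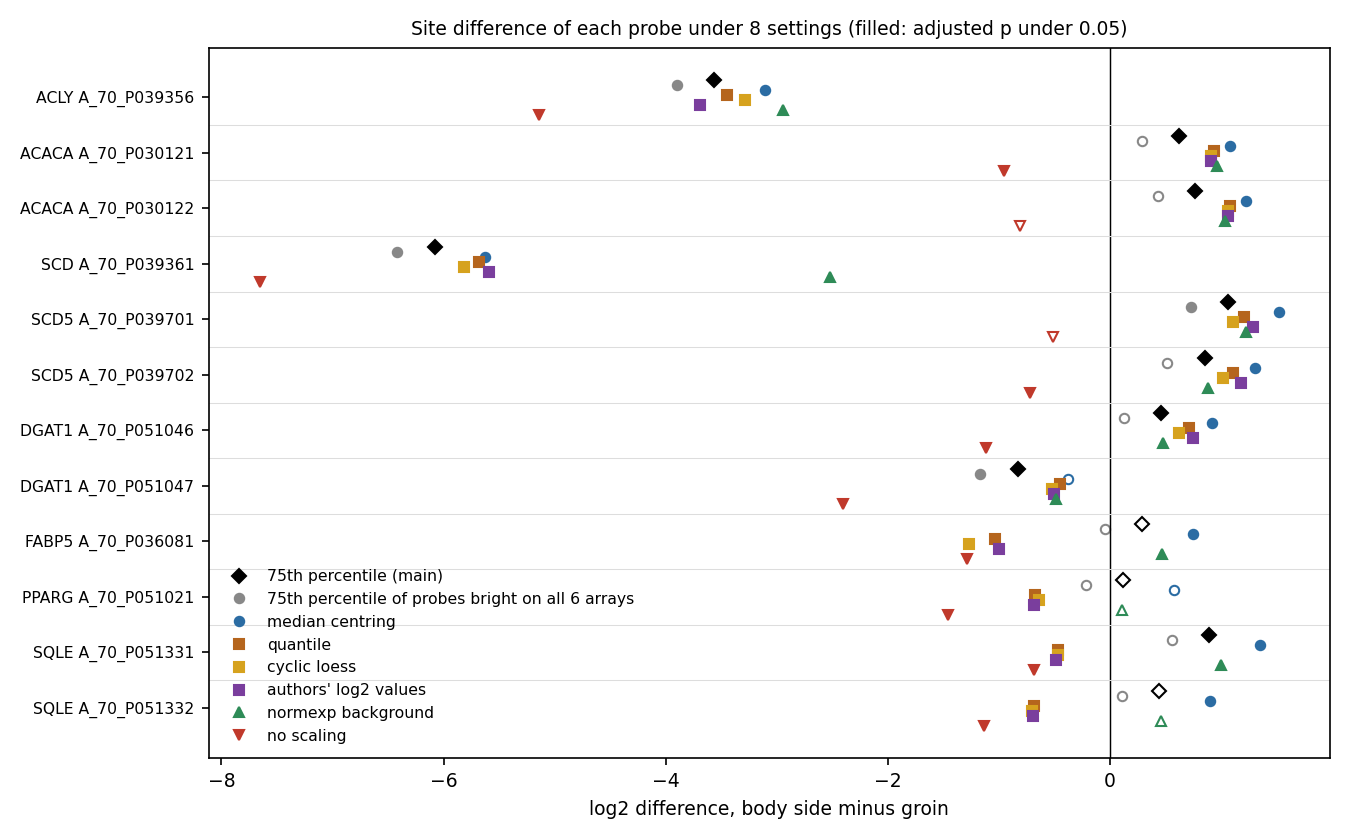
Log2 difference, body side minus groin (horizontal axis), of each of the 12 probes under 8 settings of background correction and scaling; filled symbols passed an adjusted p of 0.05. ACLY and SCD lie far below 0 under every setting drawn, while FABP5, PPARG and SQLE change sides between the 75th percentile (0.29, 0.12 and 0.89) and quantile normalization (-1.04, -0.67 and -0.46); the SCD value rests on body side spots not well above background.

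DGAT1, which completes triglycerides, was read by 2 probes of the same mRNA accession that disagreed. Probe A_70_P051046 had a processed signal of 1763, 1727 and 2235 in the groin and 660.7, 1351 and 752.4 on the body side. Probe A_70_P051047 had 1614, 1872 and 2155 in the groin but 252.2, 652.9 and 266.6 on the body side. Both lost signal on the body side arrays, and the second probe lost more of it. After scaling, A_70_P051046 was higher by 0.46 ± 0.16 SE (limma adjusted p = 0.0331) and A_70_P051047 lower, with a difference of -0.83 ± 0.19 SE (adjusted p = 0.00401), and their mean differed by -0.18 (adjusted p = 0.345).

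The opposite directions depend on the scaling: without it both probes were lower (-1.11 and -2.40), and after median centring A_70_P051047 no longer passed (-0.37). In the gap between the probes a shift common to the array cancels, though scaling that depends on brightness can still move it. The log2 gap between A_70_P051046 and A_70_P051047 was 0.13, -0.12 and 0.05 in the groin and 1.39, 1.05 and 1.5 on the body side, a change of 1.29 without overlap (two-sided exact permutation p = 0.1, its floor here). The gap also carries each probe's own response, so its change is read and not its size. With normexp the change was 0.96, and in the authors' deposited table it was 1.25. In the other genes with 2 probes the gap changed less, by 0.45 for SQLE, 0.21 for SCD5 and 0.15 for ACACA. The sites did not overlap in the gap for SQLE and SCD5 (exact permutation p = 0.1 each) and overlapped for ACACA (exact permutation p = 0.4). Among all 195 named genes with at least 2 tested probes, the gap of the 2 brightest did not overlap between the sites in 42.6%. Probe sequences were not used here, so where on the DGAT1 mRNA each probe lies was not examined. The call on A_70_P051046 ended with the replicate number as a block (0.46, limma adjusted p = 0.0617) and in 7 of the 9 fits that left out arrays, at 0.36 to 0.53, so that no direction of DGAT1 as a gene can be given.

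**Figure D3:**
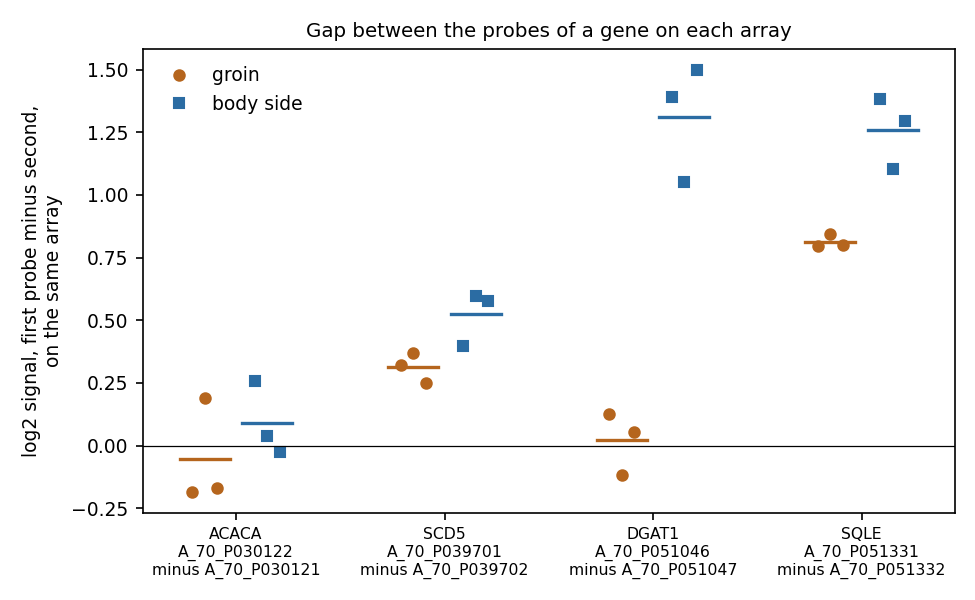
Log2 signal of the brighter probe minus that of the other probe on the same array (vertical axis), for the 4 genes with 2 probes, with groin arrays as circles, body side arrays as squares and the mean of 3 arrays as a line. The DGAT1 gap has a mean of 0.02 in the groin and 1.31 on the body side, whereas the ACACA gap overlaps between the sites.

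FABP5, the fatty acid carrier of keratinocytes, was among the brightest probes, above 98.6% to 99.5% of the probes of an array. Its processed signal was 277640, 269513 and 231132 in the groin and 88615, 133445 and 100895 on the body side. Scaled, it read 6.24, 6.01 and 5.71 in the groin and 6.33, 6.03 and 6.48 on the body side, and the sites overlapped. The difference of 0.29 ± 0.20 SE did not pass (limma adjusted p = 0.233, 95% interval -0.18 to 0.76). The sign turned with the scaling: it was -1.04 by quantile normalization (adjusted p = 9.08e-04), -1.27 by cyclic loess and -1.0 in the authors' deposited table, all 3 past the threshold, and 0.75 after median centring and 0.47 with normexp, also past it.

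PPARG, the receptor upstream of many of these genes in fat cells and sebocytes, had processed signals of 20985, 17855 and 17831 in the groin and 7550, 7487 and 5728 on the body side. Its scaled values were 2.51, 2.10 and 2.02 in the groin and 2.77, 1.87 and 2.34 on the body side, which overlap. The difference was 0.12 ± 0.26 SE (limma adjusted p = 0.694), and the interval from -0.47 to 0.71 leaves room for a change of either sign. By quantile normalization it was -0.67 (adjusted p = 0.0166) and in the authors' deposited table -0.69 (adjusted p = 0.0151). PPARG was brighter than 91.7% to 93.1% of the probes on a groin array and than 87.5% to 90.5% on a body side array.

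SQLE, the sterol gene, was higher by its brighter probe, A_70_P051331. That probe read 4.97, 4.66 and 4.51 in the groin and 5.95, 5.05 and 5.83 on the body side, without overlap, with body side replicate 2 nearest to the groin. The difference was 0.89 ± 0.26 SE (limma adjusted p = 0.0156). The other probe, A_70_P051332, differed by 0.44 ± 0.23 SE and did not pass (adjusted p = 0.111). By quantile normalization the probes were at -0.46 and -0.68, by cyclic loess at -0.47 and -0.70, and in the authors' deposited table at -0.49 and -0.69, each past the threshold as lower. The call with the main scaling also ended in 3 of the 9 fits that left out arrays, among them the one without replicate 3 of both sites (0.68).

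FABP5, PPARG and SQLE, whose sign turned with the scaling, were also bright. When the tested probes were split into 10 equal groups by mean signal, the median site difference was 1.13 in the brightest group and 0.67 in the group below it, against -0.40 in the group of ACLY and -0.11 in that of SCD and ACACA. FABP5 and both SQLE probes belong to the brightest group and PPARG to the one below it. All 4 probes thus lay under the median of their own group, with differences from it of -0.84 for FABP5, -0.55 for PPARG, and -0.24 and -0.69 for SQLE. Within their group, 15.5% of probes had a lower difference than FABP5, 27.3% than PPARG and 36.8% than the brighter SQLE probe. ACACA and SCD5, by contrast, stood above the median of their groups, by 0.88 and 1.19 for their brighter probes. ACLY was at -3.16 from the median of its group, where 1.2% of probes were lower. What part brightness has in these differences was not tested.

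**Figure D4:**
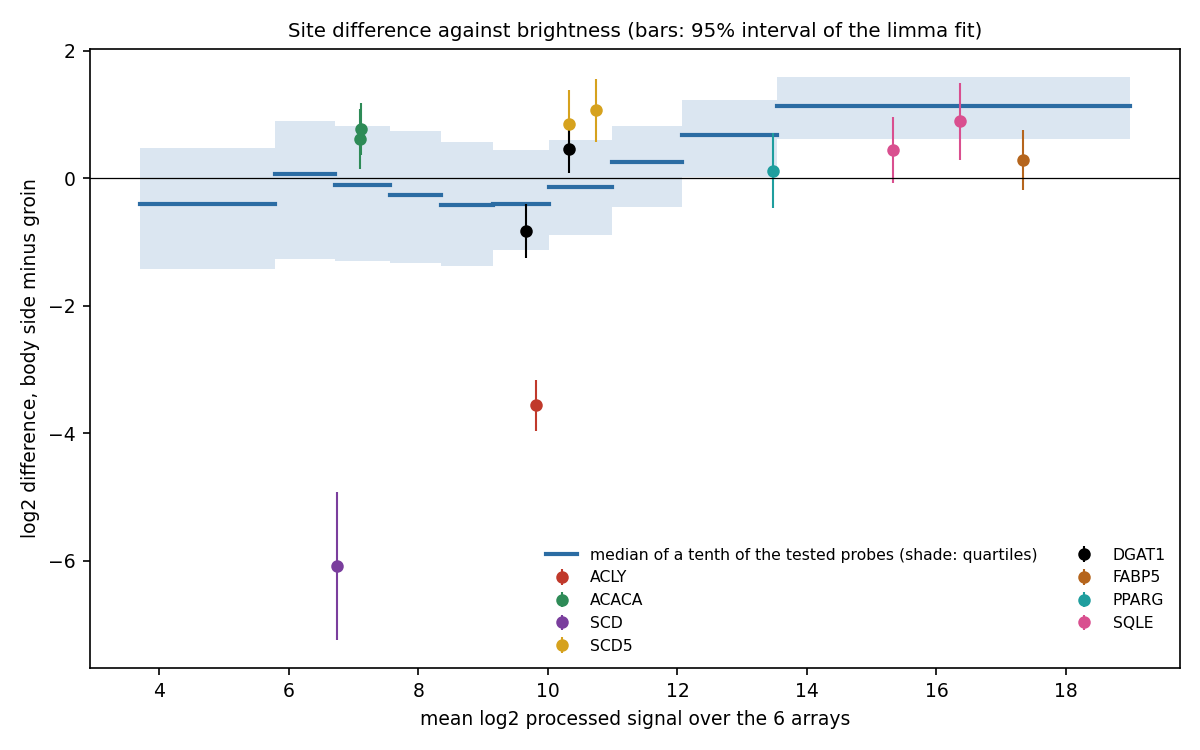
Log2 difference, body side minus groin (vertical axis), against the mean log2 processed signal of the 6 arrays (horizontal axis), for the 12 probes with the 95% interval of the limma fit; horizontal lines are the medians of 10 equal groups of the 13278 tested probes and the shade their quartiles. FABP5, SQLE and PPARG lie at or above 0 but below the medians of their groups (1.13 and 0.67), and ACLY and SCD lie far below theirs.

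Set against each other on the same array, the genes can be compared free of any shift common to the array, such as the percentile. Scaling that depends on brightness does not cancel in this way. By quantile normalization ACACA was at 1.08 and FABP5, PPARG and SQLE at -1.04, -0.67 and -0.46. With the main scaling they were at 0.77, 0.29, 0.12 and 0.89. The gaps below are those of the processed signal. Of the 28 pairs among the 8 genes, each by its brighter probe, the within-array log2 gap did not overlap between the sites in 18, or in 11 of 21 without SCD, while this held for 72.3% of all pairs of named genes with values on all arrays. The gap of ACLY over ACACA, 2 consecutive steps, was 4.89, 4.81 and 4.90 in the groin and 0.73, 0.64 and 0.23 on the body side, a change of -4.33. The gap of SCD over SCD5 was -0.99, -0.41 and 0.12 in the groin and -6.70, -8.38 and -7.63 on the body side, where SCD has only a limit. ACLY changed by -3.68 relative to PPARG and by -4.46 relative to SQLE, and PPARG by -0.77 relative to SQLE, all without overlap. On the processed signal, ACACA relative to SCD5, DGAT1, FABP5, PPARG and SQLE overlapped between the sites. No pair could pass: the smallest exact permutation p for 3 against 3 arrays is 0.1, two-sided, and 0.156 after adjustment over the 28 pairs.

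The ram and the ewes were compared through a site-by-sex term in limma. The ram is a single animal, so that arm has no spread of its own and is assumed to vary like the ewes. By that fit none of the 12 probes passed, where 0.113% of all probes in that fit did. The lowest adjusted p from limma was 0.403, for SCD, and SCD was also the 1 probe of the 12 with an unadjusted p under 0.05. SCD differed by -4.71 between the ram's samples and by -6.77 between those of the ewes, on body side spots at background. ACLY differed by -3.33 in the ram and -3.68 in the ewes.

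Around these genes, 18 further lipid genes from lists of the lipid pathways had a named and tested probe. Of them 8 were higher on the body side, 5 lower and 5 did not pass, with a median of 0.52. LPL and LEPR, among the 5 lower, entered the test through the groin arrays alone. Among all 442 named genes tested, 71% passed, 45.5% were called higher and 25.6% lower, and the median was 0.39. Without replicate 3, 4 of the 18 were called higher and 4 lower, where 3315 and 3249 of the 13278 tested probes were.

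The list of fatty acid synthesis, desaturation and elongation had 10 tested genes, of which 6 were higher and 3 lower, with a median of 0.72 and a mean of -0.52, SCD, with its readings near the background, and ACLY being its lowest members. Among its other members, genes that supply NADPH, the reductant of fatty acid synthesis, went both ways. ME1, the cytosolic malic enzyme that makes NADPH from malate, was lower on the body side, with a difference of -1.18 ± 0.24 SE (limma adjusted p = 0.00243). Its scaled level was -1.37 ± 0.08 for the groin and -2.55 ± 0.46 for the body side (SD over 3 arrays). Its call held in all 20 alternative fits, from -2.76 without scaling to -0.73 after median centring. PGD, which makes NADPH in the pentose phosphate pathway, was higher by 1.39 ± 0.27 SE. It belongs to the brightest probes, whose median is 1.13, and it did not pass by quantile normalization (0.04). HACD1, a dehydratase of fatty acid elongation, was higher by 0.83 ± 0.23 SE (0.67 and not past the threshold without replicate 3).

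Genes of lipid stores and of lipid regulation also went both ways. PLIN2, which coats lipid droplets in most cells, was lower, with a difference of -2.13 ± 0.19 SE (limma adjusted p = 5.87e-05). Its scaled level was 3.28 ± 0.14 for the groin arrays and 1.14 ± 0.28 for the others (SD, n = 3 each), and its other probe gave -2.14 ± 0.18 SE. That call held in all 20 alternative fits. Of the 5 tested genes of lipid droplets and lipolysis, PLIN2 was the 1 called lower. ABHD5, the coactivator of triglyceride lipase, was higher by 1.43 ± 0.19 SE (0.64 by quantile normalization), and PLIN1, the droplet coat of fat cells, by 0.62 ± 0.23 SE (0.13 by quantile normalization; its call held in 7 of 20 alternative fits). Of 2 genes of uptake and binding, LPL, the lipoprotein lipase of capillaries, was lower, with a difference of -0.71 ± 0.18 SE. Its probe was well above background on 1 body side array. It entered the test through the groin arrays alone, which favours a lower reading on the body side. LPL was at 0.51 with normexp, and lost its call without replicate 3 (-0.53). FABP5 was the other gene of the 2.

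Of 4 regulators, AKT1, a kinase of insulin signalling, was lower, with a difference of -2.10 ± 0.21 SE and PRKAA2, a catalytic subunit of the energy sensor AMPK, higher by 1.18 ± 0.18 SE. LEPR, the leptin receptor, was read above background by its brightest probe in groin skin alone, through which it entered the test. With the main scaling and a limit set as for SCD, that probe gave at least 3.44-fold more signal there. This limit was not computed for other settings. The call on that probe ended with normexp (-0.36). Of LEPR's other probes, 1 was called lower and 1, at -0.67, did not pass (limma adjusted p = 0.0727). PPARG was the fourth. Of 3 genes of fatty acid oxidation, CPT1B, which passes fatty acids into mitochondria, was higher by 0.85 ± 0.17 SE (0.27 for its other probe, not past the threshold; 0.72 and not past it without replicate 3), and 2 did not pass. The lists of triglyceride and wax ester assembly and of sterols held DGAT1 and SQLE alone. Genes such as FASN and SREBF1 had no probe named through RefSeq and were not analysed here.

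**Figure D5:**
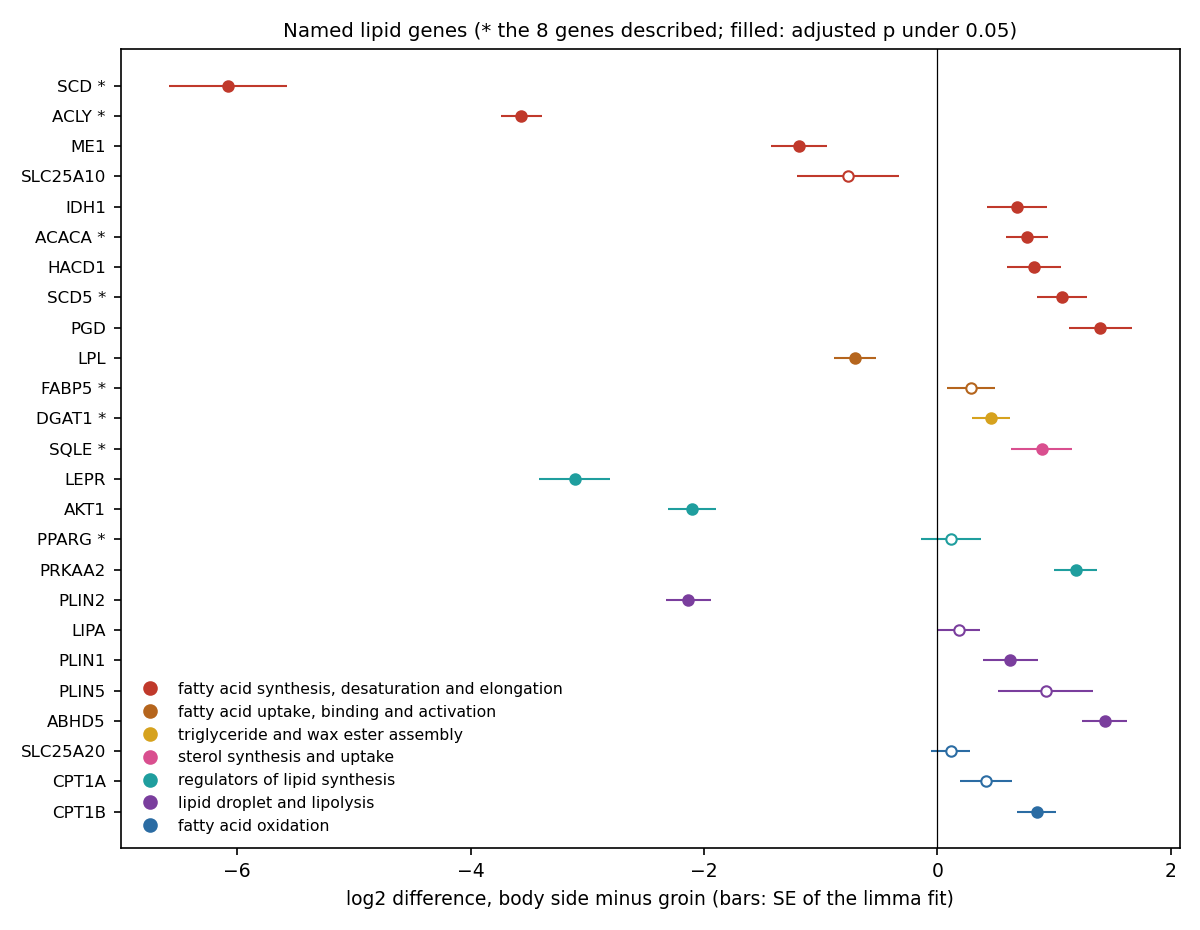
Log2 difference, body side minus groin (horizontal axis, bars the SE of the limma fit), of the lipid genes described here and of others on the lists, by their brightest probe, coloured by list; asterisks mark the 8 genes and filled points passed an adjusted p of 0.05. SCD, ACLY, LEPR, PLIN2, AKT1, ME1 and LPL lie below 0 and filled, SLC25A10 lies below 0 and open, and the other genes lie above it; SCD and LEPR were not well above background on the body side.

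Markers of the cells that could carry this lipid were few. Of 10 fat cell markers 2 were tested, PLIN1 (higher) and LPL (lower, tested through the groin arrays alone). Signals were summed before the log2 was taken, so the brightest marker dominates a sum. The summed level of fat cell markers ran from 1.08 to 1.26 in the groin and from 1.43 to 2.25 on the body side. It is almost all PLIN1, with means of 1.12 and 1.75, where LPL had -4.91 and -5.62. The other PLIN1 probe, at 0.09, did not pass. Of 10 sebocyte markers 2 were tested. MC5R, a melanocortin receptor of sebaceous glands, differed by -0.28 ± 0.22 SE (limma adjusted p = 0.267), and PLIN2 made the summed level 3.18 to 3.44 in the groin against 0.93 to 1.46 on the body side. All 5 wool follicle markers were higher on the body side, with a summed level of 5.99 to 6.28 in the groin and 8.94 to 9.83 on the body side. Of 8 skeletal muscle markers 3 were tested, 2 higher and 1 lower (summed level 1.79 to 2.21 in groin skin, 2.79 to 3.21 in body side skin). Of 3 erythrocyte markers 2 were tested, 1 higher and 1 lower (0.66 to 1.19, and -2.30 to -0.89). The groin sum comes mostly from the marker called lower. Both tested sweat gland markers of 4 were higher (-4.64 to -3.38, and -2.34 to -1.57), as was 1 of 4 tested mammary markers of 5 (0.18 to 0.39, and 0.56 to 1.59). The second probes of the mammary markers CSN2 and LALBA were called higher (5.22 and 1.19) where the brighter probes, at 0.49 and 0.43, did not pass. Markers such as LEP, ADIPOQ, AWAT1 and ELOVL3 were not analysed here. The part of any of these cells in the differences of the 8 genes was not tested.

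Among 431 other named genes, those whose centred values over the 6 arrays lay closest to ACLY were MMP2, ITGB1 and FHL1, at root mean square distances of 0.23, 0.24 and 0.26 on the log2 scale. MMP2 is a gelatinase of the dermis, ITGB1 an integrin subunit and FHL1 a protein of muscle fibres. They were lower, with differences of -3.71, -3.32 and -3.88. The closest to SCD were CYP1A1 and CA1, at 0.92 and 0.99, distances that include the spread of SCD's body side readings near the background and, for CA1, of a gene above background on 1 body side array. The closest gene was AQP4 for ACACA (0.09), IFNAR1 for SCD5 (0.09), PYGM for DGAT1 (0.06), ATP5MC1 for FABP5 (0.15), SFTPA1 for PPARG (0.13) and DCN for SQLE (0.13). Each distance is over 6 arrays at 2 sites, so genes with a like site difference come out close.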

How the data were processed

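Total RNA of 6 skin samples was hybridised to single-colour (Cy3) Agilent arrays, per the labels' protocols. The submitters' processing notes name Agilent Feature Extraction 10.5.1.1 as the software that read the scans. The deposited processed signal is an intensity to which, per the file headers, background and spatial detrending had been applied, with no scaling between arrays. A second, log2 table was deposited by the authors, with a common median in its columns; how it was normalized is not given in the sources used here. No genome build is named, so no coordinates are given.

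Samples were grouped by the site in their titles. Replicates are separate animals. The ram carries number 1 in both groups, and whether numbers 2 and 3 mark the same ewe is not stated. Control spots and outlier spots were left out, and spots of a probe were averaged. The 75th percentile of each array was subtracted from log2 processed signal. Testing took the 13278 of 15008 probes that were well above background on all 3 arrays of either site, with at least 2 values per site. Differences and moderated SEs are from limma 3.58.1 in R 4.3.3 without a block, with Benjamini-Hochberg adjustment over all tested probes and a threshold of 0.05. The limma step was tested on simulated data with independent noise and no brightness gap between sites, which cannot vouch for calls on these arrays. The number of arrays limits the precision. Probes were named through RefSeq accessions of ARS-UI_Ramb_v3.0, and the brightest tested probe stands for a gene. The 8 genes and the lists were chosen with earlier results of these data known. Outside the 8 genes, the rule names up to 4 called genes per list by smallest adjusted p, and the 3 genes nearest to each of the 8; genes listed as not analysed are exceptions. Alternatives were normexp (offset 50), median centring, quantile normalization, cyclic loess, a percentile over probes bright on all 6 arrays, no scaling, the deposited log2 values, other filters, a variance trend, a replicate block, the mean of a gene's probes, and leaving out arrays. An item of the lists is counted but not reported by name here.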

Additional observations from a re-analysis of the deposited data

How the results depend on the processing

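ACLY kept its direction and its call in all 21 alternatives, from -5.14 to -2.94. SCD did so in the 20 that held it. It entered through the groin alone and lies near the background on the body side, so those repeated calls add no support. Without scaling between arrays the following had the opposite sign: ACACA (-0.95 and -0.81), SCD5 (-0.51 and -0.72), DGAT1 A_70_P051046 (-1.11), FABP5 (-1.29), PPARG (-1.46), SQLE (-0.68 and -1.13), ABHD5 (-0.14), CPT1B (-0.73), HACD1 (-0.75), PGD (-0.18), PLIN1 (-0.95) and PRKAA2 (-0.39). That setting called 190 probes higher and 9412 lower, 0 and 10 of the 12 probes, and 0 and 13 of the 18 further lipid genes. It leaves the dimmer body side arrays as they are. By quantile normalization, cyclic loess and in the authors' deposited table FABP5 was at -1.04, -1.27 and -1.0, PPARG at -0.67, -0.64 and -0.69, SQLE A_70_P051331 at -0.46, -0.47 and -0.49, and SQLE A_70_P051332 at -0.68, -0.70 and -0.69. Each of these 3 settings called 7 of the 12 probes lower, and cyclic loess called 5 of the 18 lipid genes higher. Of all tested probes they called 4095, 4499 and 4167 lower, and cyclic loess called 4286 higher. With the percentile over probes well above background on all 6 arrays, FABP5 was at -0.047 and PPARG at -0.22. The calls ended for ACACA A_70_P030122 (0.43), DGAT1 A_70_P051046 (0.13) and SQLE A_70_P051331 (0.56). In that setting 4 of the 12 probes were called, 1 of them higher, and 5 of the 18 genes were higher. Of all tested probes 9073 were called there, 3607 of them higher. Normexp put LPL at 0.51 and FABP5, past the threshold, at 0.47, called 3 of the 18 genes lower, moved the change in probe gap to 0.96 for DGAT1 and 0.34 for SCD5, and left 0 probes in the comparison of ram and ewes. Median centring put FABP5, past the threshold, at 0.75, and ended the call of DGAT1 A_70_P051047 (-0.37). The deposited log2 values put the change in the SQLE gap at 0.20. The mean of both DGAT1 probes was -0.18, and a filter on all 6 arrays left 3 of the 18 genes lower and did not hold SCD. Of all tested probes normexp called 2984 lower, and that filter 2963 of 10580. The causes were not tested.

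Numbers 2 and 3 could not be shown to pair samples: deviations of same-numbered samples correlated at 0.16, 0.09 and -0.09, and groin 3 correlated with body side 2 at 0.16. With a replicate block 8 of the 12 probes and 9211 of all tested probes were called, and DGAT1 A_70_P051046 lost its call (0.46, adjusted p = 0.0617).

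Leaving out arrays kept the sign of every difference except PPARG (-0.10 without body side replicate 1) and the ACACA probe gap (-0.0032 without replicate 1). The ranges were -3.68 to -3.42 for ACLY, -6.77 to -5.48 for SCD, 0.66 to 0.85 for ACACA A_70_P030122, 0.91 to 1.26 for SCD5 A_70_P039701, 0.36 to 0.53 for DGAT1 A_70_P051046, 0.05 to 0.43 for FABP5, -0.10 to 0.35 for PPARG and 0.68 to 1.17 for SQLE A_70_P051331. The probe gaps changed by -0.0032 to 0.29 for ACACA, 0.15 to 0.28 for SCD5, 1.21 to 1.35 for DGAT1 and 0.38 to 0.54 for SQLE. Between 3 and 10 of the 12 probes were called, 1 to 7 higher and 2 to 3 lower, with the lowest total without replicate 3 (1 higher) and 3 higher without body side replicate 3. Of the 18 genes 8 to 13 were called, 4 to 8 higher and 4 to 6 lower, and of all probes 6564 to 9746, 3315 to 5205 higher and 3249 to 4541 lower. Dim signal limits SCD on the body side, where its spots bound the level and do not measure it.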
